A study of Mus musculus with 4 samples.

Results

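The SoxC, SoxD and SoxE factors are 3 groups of transcription factors that share the HMG box, a domain that binds DNA in the minor groove. The set was made of every non-control probe whose gene name in the scanner files was Sox4, Sox11 or Sox12 (SoxC), Sox5, Sox6 or Sox13 (SoxD), or Sox8 or Sox9 (SoxE). This gave 8 genes and 22 probes of 41174, with 8 probes for SoxC, 9 for SoxD and 5 for SoxE. The members were followed in 3 mouse neural progenitor cell (NPC) lines and in Mixture, a pool of tissue RNA, with 1 array for each sample.

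NS21 was of strain 129/Ola and came from the embryonic stem (ES) cell line 21, NS195R was of strain 129/Sv and came from the ES line 195R, and NSEB5-2C was of strain 129/Ola and came from the ES line EB5. Mixture was of strain Swiss Webster and combined, at the same mass each, RNA of the day 11 embryo and of lung, liver, spleen, thymus, kidney and heart, with no adult brain or cartilage named among its tissues. No treatment was named for any NPC line. One label of Mixture named a doxycycline-treated NPC line instead. All 6 pooled tissue markers (Alb, Nppa, Umod, Scgb1a1, Cd3d and Cdh5) gave signal well above background in Mixture, and 0 did so in an NPC line. No line shares the strain of Mixture, so in such a ratio the strain and the cell type cannot be told apart.

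SoxC factors are known from progenitors that begin to differentiate, where Sox4 and Sox11 activate genes of young neurons. SoxD factors lack a transactivation domain of their own and act with SoxE factors, in cartilage with Sox9 and in glia as modulators of SoxE function. SoxE factors hold neural stem cells and drive glial fate, and Sox9 is needed for the switch from neurons to glia in the spinal cord.

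Promoter sequences are shown for the SoxC genes, of which Sox4 and Sox11 were higher in every line measured here, and for Sox8, which was measured in NS195R alone. Each runs 5′ to 3′ from 250 bases before to 50 after a transcription start, from RefSeq in GRCm38.p6. Capitals mark CCAAT or its reverse complement ATTGG in the SoxC promoters, and GGGCGG in the Sox8 promoter.

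Sox4 (chr13:28953650-28953949, minus strand): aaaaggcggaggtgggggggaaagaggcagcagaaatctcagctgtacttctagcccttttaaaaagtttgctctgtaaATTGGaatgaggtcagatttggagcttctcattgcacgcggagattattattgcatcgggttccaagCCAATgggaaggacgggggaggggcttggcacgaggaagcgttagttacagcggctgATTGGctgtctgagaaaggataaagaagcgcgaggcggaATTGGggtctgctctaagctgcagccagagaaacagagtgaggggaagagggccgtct

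Sox11 (chr12:27342669-27342968, minus strand): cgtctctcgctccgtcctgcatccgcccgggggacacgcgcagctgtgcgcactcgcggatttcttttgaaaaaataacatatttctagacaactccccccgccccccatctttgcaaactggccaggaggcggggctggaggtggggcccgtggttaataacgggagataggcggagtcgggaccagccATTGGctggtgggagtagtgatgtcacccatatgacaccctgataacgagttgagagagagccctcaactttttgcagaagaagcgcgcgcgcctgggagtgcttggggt

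Sox12 (chr2:152397997-152398296, minus strand): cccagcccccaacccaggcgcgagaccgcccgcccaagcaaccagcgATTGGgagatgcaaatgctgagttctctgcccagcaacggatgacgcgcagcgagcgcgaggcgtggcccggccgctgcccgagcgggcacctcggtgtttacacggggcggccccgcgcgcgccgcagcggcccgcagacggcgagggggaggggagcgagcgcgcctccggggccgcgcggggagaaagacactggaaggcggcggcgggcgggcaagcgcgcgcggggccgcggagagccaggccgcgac

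Sox8 (chr17:25570637-25570936, minus strand): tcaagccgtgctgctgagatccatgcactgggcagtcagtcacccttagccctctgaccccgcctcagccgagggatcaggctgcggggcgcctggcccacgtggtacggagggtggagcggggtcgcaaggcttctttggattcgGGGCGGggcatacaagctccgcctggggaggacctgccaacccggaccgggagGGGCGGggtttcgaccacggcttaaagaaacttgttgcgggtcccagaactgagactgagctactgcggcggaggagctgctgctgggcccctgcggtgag

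CCAAT, searched on both strands, occurred 4 times in the Sox4 window and 1 time each in those of Sox11 and Sox12, and 37.4% of all 32851 promoter windows held it. Sox8 held 0 CCAAT and 2 GGGCGG, which 35.7% of all windows held on either strand. GGGCGG occurred 2 times in the Sox11 window, 4 times in that of Sox12 and 0 times in that of Sox4. A match is a description of the letters and says nothing of binding. The table held windows for 7 of the 8 members, and Sox9 was not among them.

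Of the 22 member probes, 19 were well above background in NS195R, 13 in NS21, 12 in NSEB5-2C and 14 in Mixture. All 8 genes had such a probe in NS195R, against 6 in NS21, 5 in NSEB5-2C and 6 in Mixture. Levels below are log2 processed signals relative to each array's percentile 75, so that 0 is that percentile and the lowest level well above background lay between -5.19 and -5.00. A ratio is the level in an NPC line minus that in Mixture. Between 23983 and 26840 of 43379 spots were well above background on an array, and 0 were saturated. Each NPC line was a single array, so the spread between lines holds line differences together with technical error.

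**Figure D1:**
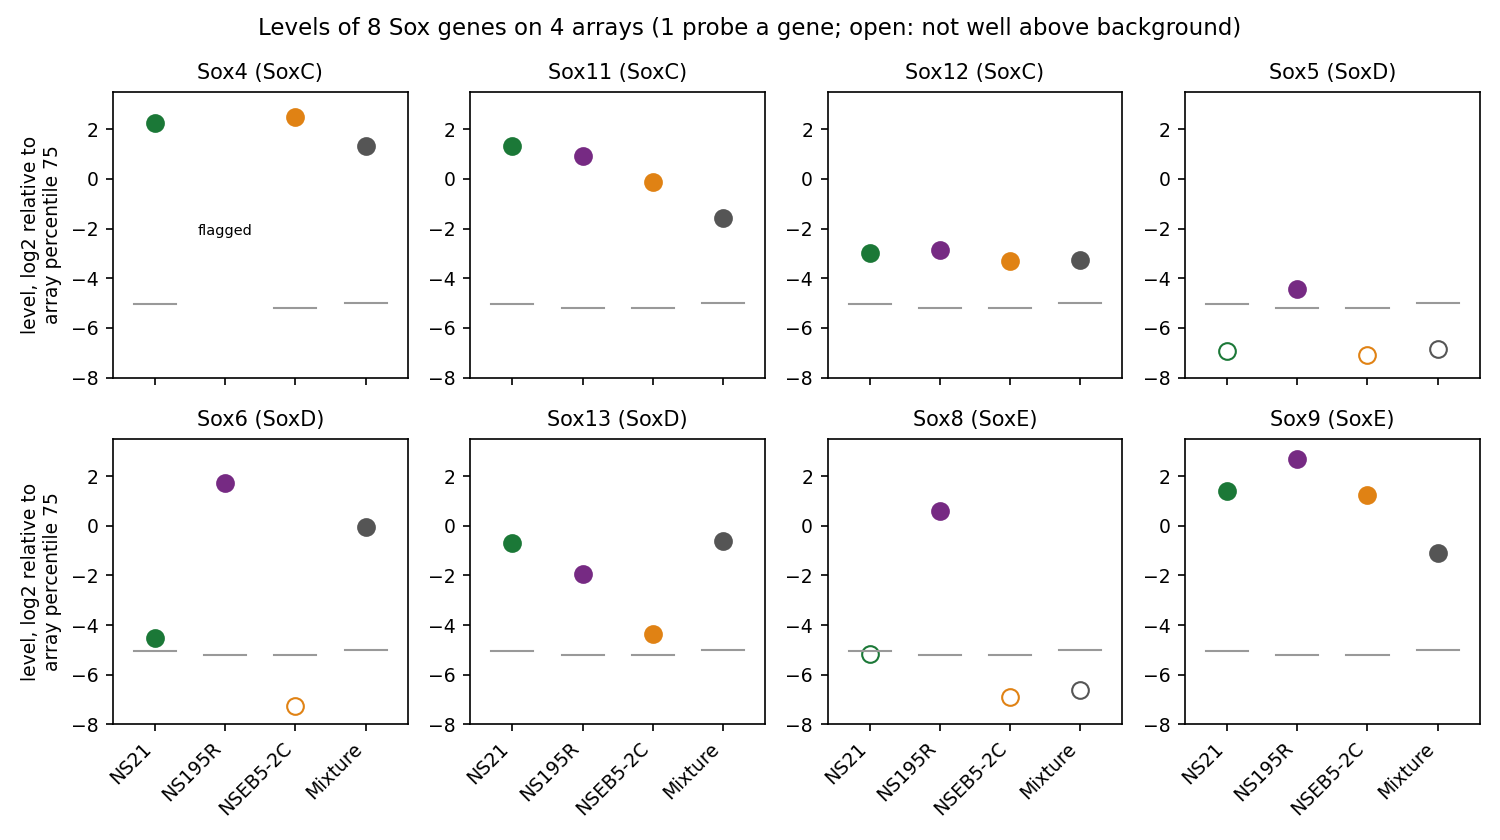
Level of each gene (log2 relative to the array's percentile 75) on the arrays of NS21, NS195R, NSEB5-2C and Mixture, 1 probe a gene. Open circles are not well above background, grey bars are the lowest level well above background on the array, and the flagged Sox4 spot of NS195R is left out. Sox9 and Sox11 stand above Mixture in all 3 lines, while Sox6 and Sox8 are high in NS195R alone among the lines.

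Sox9 and Sox11 were higher than in Mixture in all 3 NPC lines, and Sox4 in both lines that gave a value. With 1 probe a gene, limma called 0 of the 8 members with an adjusted p under 0.05, while 0.943% of 19828 genes were called higher and 8.9% lower. Without adjustment, p was under 0.05 for 1 member (Sox9, higher), where 15.6% of all genes were higher and 15.4% lower. The study's rule, at least 1.5-fold above Mixture in NSEB5-2C together with NS21 or NS195R, selected 3 of the 8 (Sox4, Sox9 and Sox11), a share near the 34.9% of all genes. The same 3 were at least 1.5-fold above Mixture in every line with a value, against 26.4% of genes, and above Mixture by any size, against 43% of genes. The median ratio was 0.71 among genes measured well above background on each of the 4 arrays, so that a ratio of that size is the middle of those genes. In bulk RNA, fewer cells of a type and less RNA per cell cannot be told apart.

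Among the SoxC genes, Sox11 gave the highest ratios. Its processed signal at the probe with the highest mean (A_52_P160955) was 604.1 (NS21), 476.7 (NS195R) and 210.3 (NSEB5-2C), against 88.0 in Mixture. All 3 lines lay above Mixture. The mean level was 0.71 ± 0.76 in NPC lines (SD, n = 3), against -1.56 in Mixture, which is 2.26 on the log2 scale (SE 0.76, adjusted p = 0.164 with limma) and 1.55 above the median ratio of 0.71. Over 11 alternatives the ratio lay between 1.68 and 3.23 and the adjusted p between 0.0628 and 0.295.

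Sox11 had 6 probes, and their ratios differed along the gene. The array's own positions put them along 7409 genomic bases of chromosome 12. The 2 called member probes of the 19 tested both belonged to Sox11, while 0.942% of 29715 probes were called higher and 7.87% lower. Without adjustment, p was under 0.05 for 8 member probes, all higher (6 of Sox11 and 2 of Sox9), where 16.9% of probes were higher and 13.8% lower. At 1364 bases from the probe nearest the 5′ end, A_52_P114703 had a signal of 646.8 (NS21), 378.1 (NS195R) and 325.8 (NSEB5-2C), against 24.9 in Mixture. This is 28.2-fold for NS21, 15.6-fold for NS195R and 14.6-fold for NSEB5-2C, with a log2 ratio of 4.22 (SE 0.58, adjusted p = 0.0423 with limma). At 1567 bases, A_52_P178018 had 425.8 (NS21), 244.8 (NS195R) and 215.9 (NSEB5-2C), against 9.64 in Mixture, which was not well above background. The signal was at least 47.9-fold (NS21), 26.1-fold (NS195R) and 25.0-fold (NSEB5-2C) higher, with a log2 ratio of 4.98 (SE 0.58, adjusted p = 0.0306 with limma). Leaving out any 1 line left 0 probes called over the whole array, so the loss of both calls is not particular to Sox11. The log2 ratios were then 3.92 (A_52_P114703) and 4.67 (A_52_P178018) without NS21, 4.34 and 5.11 without NS195R, and 4.39 and 5.14 without NSEB5-2C.

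The other 4 Sox11 probes had log2 ratios of 2.30 (SE 0.34, adjusted p = 0.0513 with limma) at 0 bases, 2.82 (SE 0.65) at 4093 bases, 2.81 (SE 0.76) at 6887 bases and 2.26 (SE 0.76) at 7409 bases. All 6 were higher in all 3 lines. The lines lay apart at the probes farther along the gene. NS21 exceeded NSEB5-2C by -0.01 on the log2 scale at 0 bases, by 0.95 and 0.94 at 1364 and 1567 bases, and by 1.22, 1.49 and 1.48 at the last 3 probes. NS195R exceeded NSEB5-2C by 0.03, 0.09 and 0.06 at the first 3 probes and by 0.79, 1.09 and 1.06 at the last 3. Which transcripts each probe meets was not tested.

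**Figure D2:**
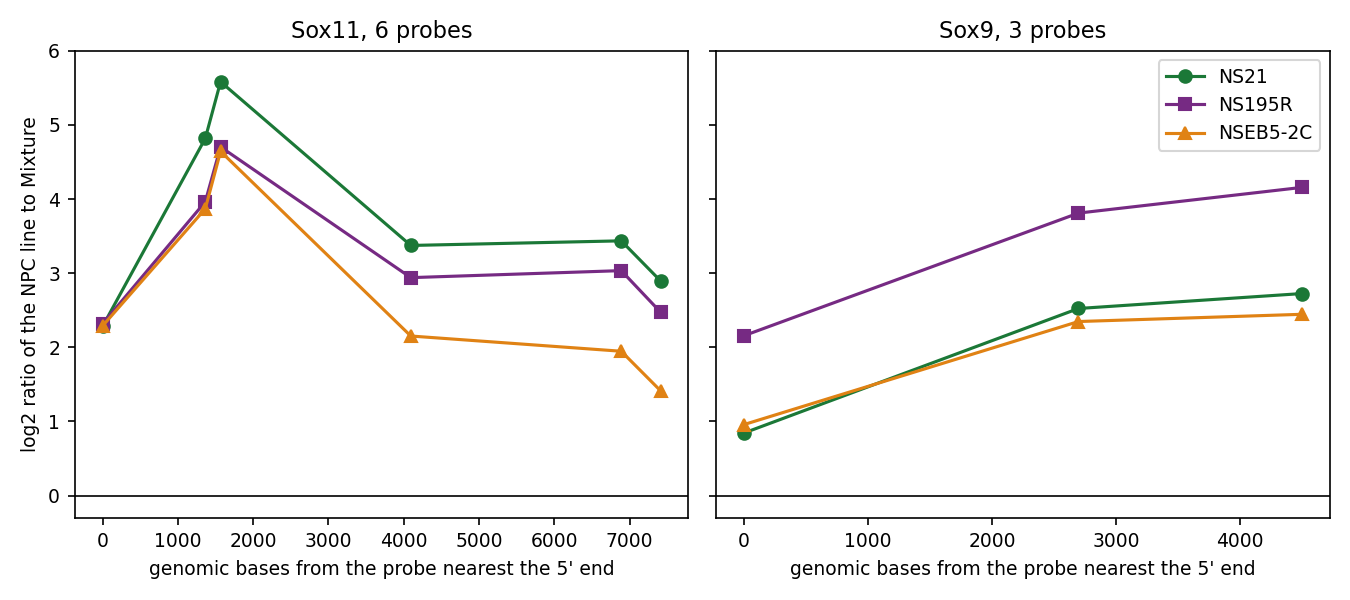
Log2 ratio of each NPC line to Mixture at the 6 Sox11 probes and the 3 Sox9 probes, against the genomic distance in bases from the probe nearest the 5′ end. Lines join probes of 1 array and are no fit; the Sox11 point at 1567 bases is a lower bound, since Mixture was not well above background there. The Sox11 ratios peak at 1364 and 1567 bases. NSEB5-2C lies below both other lines from 1364 bases on, at 1364 and 1567 bases by only 0.09 and 0.06 against NS195R. NS195R is highest at every Sox9 probe.

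Sox4, which acts beside Sox11 in young neurons, was read by 1 probe. Its signal was 1149.5 in NS21 and 1292 in NSEB5-2C, against 651 in Mixture, which is 1.91-fold (NS21) and 2.21-fold (NSEB5-2C). The NS195R spot was flagged as non-uniform and left out of the fit, so the log2 ratio of 1.04 (SE 0.44, adjusted p = 0.271 with limma) rests on 2 lines. With the flagged spot, whose signal was 835, the NS195R ratio was 0.40. The ratio of 1.04 stood 0.33 above the median of 0.71. Sox12, the weakest activator of the SoxC group, had signals of 29.8 (NS21), 34.2 (NS195R) and 23.2 (NSEB5-2C), against 27.1 in Mixture. These overlap, and the log2 ratio of 0.19 (SE 0.39, adjusted p = 0.771 with limma) turned to -0.30 with median scaling and to 0.92 with quantile normalization (adjusted p = 0.137 with limma).

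The SoxD genes did not move together. Sox6, which with Sox5 promotes cartilage formation and restrains oligodendrocyte maturation, differed between the lines at the probe kept for the gene (A_52_P282171). The signal was 836 (NS195R), 10.4 (NS21) and 1.52 (NSEB5-2C), against 247.2 in Mixture, so that 1 line lay above Mixture and 2 below. NS195R was 3.47-fold above Mixture. NS21 was 21.9-fold below it, and NSEB5-2C, not well above background, at least 34.9-fold below. The mean ratio of -3.28 (SE 4.13, limma adjusted p = 0.642) therefore describes no single line.

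The other 4 Sox6 probes went the same way where they were measured. At the probe 69792 bases along, NS195R was 6.18-fold above Mixture, and the dim lines were at least 2.74-fold (NS21) and 3.02-fold (NSEB5-2C) below. At 64718 bases NS195R was 1.59-fold above Mixture, and the dim lines at least 4.19-fold (NS21) and 4.62-fold (NSEB5-2C) below. At the probe nearest the 5′ end NS195R was at least 3.74-fold above Mixture, where the other lines were dim too. The probe at 1736 bases was dim on all 4 arrays. These are genomic distances that include introns.

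Sox13, a SoxD gene also active in T cells, lay below Mixture in NSEB5-2C and NS195R and close to it in NS21. Its signal was 147.4 (NS21), 65.9 (NS195R) and 11.4 (NSEB5-2C), against 171.1 in Mixture. NSEB5-2C was 13.5-fold below Mixture and NS195R 2.53-fold, while the ratio in NS21 was -0.10, and 0.03 with quantile normalization. The limma ratio was -1.73 (SE 1.70, adjusted p = 0.549), and -0.72 without NSEB5-2C. Sox5 was near or below background. Its probe A_52_P352356 had 11.7 in NS195R, against 2.23 in Mixture, at least 1.49-fold higher, and its other 2 probes were dim on all arrays. A further probe that the files name A730017D01Rik, listed by RefSeq as a synonym of Sox5, was no member by the rule. It was chosen after its values were seen, and had a signal of 62.7 (NS195R), 1.50 (NS21) and 2.15 (NSEB5-2C), against 8.44 in Mixture, well above background in NS195R only.

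Sox9 was the SoxE gene seen in every line, and all 3 of its probes were higher in all 3 lines. At the probe with the highest mean (A_52_P577484), the signal was 634.8 (NS21), 1637 (NS195R) and 546.3 (NSEB5-2C), against 119.7 in Mixture. This is 5.75-fold (NS21), 14.0-fold (NS195R) and 5.09-fold (NSEB5-2C). The log2 ratio of 2.89 (SE 0.79, adjusted p = 0.125 with limma) stood 2.18 above the median of 0.71, and lay between 2.41 and 3.17 over the alternatives. The probe with 10 spots on each array (A_52_P214630) gave 6.61-fold (NS21), 17.8-fold (NS195R) and 5.45-fold (NSEB5-2C), with spot SDs between 0.0303 and 0.101 on the log2 scale. Its ratio of 3.11 (SE 0.88) had an adjusted p of 0.131 with limma. The probe nearest the 5′ end had a ratio of 1.32 (SE 0.73).

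Sox8, a SoxE gene of glial and neural crest cells, was well above background in NS195R alone. Its probe A_52_P269667 had a signal of 379.2 (NS195R), 6.74 (NS21) and 1.93 (NSEB5-2C), against 2.67 in Mixture, at least 48.0-fold above Mixture in NS195R. Its other probe had 251.5 in NS195R, at least 31.8-fold above Mixture. The limma ratio of 2.77 (SE 3.52, adjusted p = 0.645) covers 1 line high and 2 lines not well above background.

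**Figure D3:**
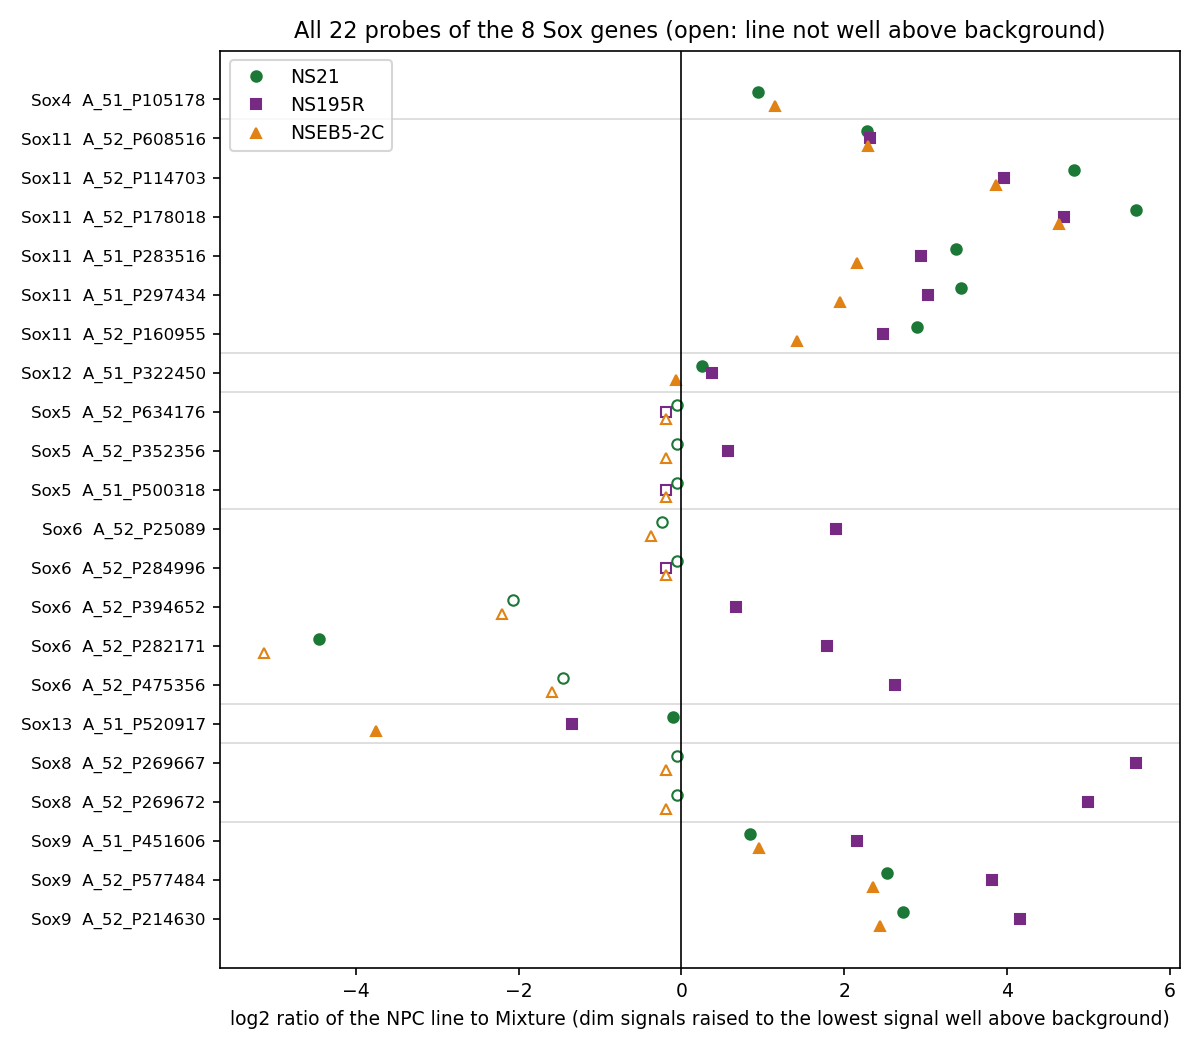
Log2 ratio of each NPC line to Mixture at all 22 member probes, ordered by gene, with dim signals set to the array's lowest signal that was well above background; open symbols mark a line not well above background. Sox11 and Sox9 lie right of 0 in all lines, and the Sox8 probes lie far right in NS195R only. Sox6 lies right of 0 in NS195R at 4 of its 5 probes. In the other lines, where most are dim, it lies left of 0 at the probes with Mixture well above background. At the Sox6 probes where Mixture was dim too, the points of dim lines are set by the lower limits and give no direction.

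NS195R stood apart for Sox6, Sox8 and Sox9. Beyond both other lines by at least 2-fold, NS195R was higher for Sox6, Sox8 and Sox9 (3 members), where 10.3% of 19821 genes were as far above. Against the mean of the other lines, Sox6 was at least 95.8-fold and Sox8 at least 52.3-fold higher. Sox9 was 2.59-fold higher (log2 1.37, SE 0.40, limma adjusted p = 0.506). NSEB5-2C was lower for Sox13 and Sox11 (2 members), where 6.3% of genes were as far below, by 8.20-fold (Sox13) and 2.41-fold (Sox11). For Sox11 this held at 2 of its 6 probes, NS195R lying 0.03 to 0.79 above NSEB5-2C on the log2 scale at the other 4. The count of members lower in NSEB5-2C was 1 with the mean of probes and 0 with normexp. Over all genes the count went from 1249 to 1222 (mean of probes) and 391 (normexp). NS195R was lower for 0 members (5.88% of genes) and NSEB5-2C higher for 0 (5.61%). NS21 was higher for Sox13 (1 member), where 7.3% of genes were as far above, by 5.46-fold, and lower for 0 (4.06%). In at least 1 line 5 members stood apart in this way, against 33% of genes. Sox4, whose NS195R spot was flagged, could not be called in these counts. With limma, 0 genes passed in any of these line comparisons. Without adjustment, the limma p was under 0.05 for 3 members in NS195R (Sox5, Sox6 and Sox8), where 10.5% of genes had such a p. It was so for 0 members in NS21 and NSEB5-2C, where 5.71% and 5.82% did. Both other lines were dim for Sox5 and Sox8, and NSEB5-2C for Sox6, so these 3 p-values rest in part on background signals. With dim values raised, Sox5 was at least 1.62-fold higher in NS195R, short of 2-fold. NS195R differs from NS21 and NSEB5-2C in strain as well as in ES line.

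NS195R was at least 2-fold above both other lines for 5 of the 8 neural progenitor markers and below for 0. Of all genes, 10.3% were as far above and 5.88% as far below. The markers did not all follow NS195R. Of 8 neural progenitor markers, the number well above background was 8 for NS195R, against 5 (NS21), 6 (NSEB5-2C) and 7 (Mixture). Nes, the intermediate filament nestin, had a log2 ratio of 2.36 (NS21), 3.78 (NS195R) and 1.86 (NSEB5-2C), and Vim, vimentin, had 1.93 (NS21), 1.48 (NS195R) and 2.03 (NSEB5-2C). Fabp7 and Hes5 were dim in NS21 and NSEB5-2C, and Sox2 was dim in NS21. Prom1, a surface protein of stem cells, was highest in NS21, with 2.81 (NS21), -0.59 (NS195R) and 0.09 (NSEB5-2C), and the RNA-binding protein gene Msi1 had -0.00 (NS21), -0.01 (NS195R) and -0.29 (NSEB5-2C). Pax6, a factor of neural progenitors, had 1.38 (NS21), 4.76 (NS195R) and 3.40 (NSEB5-2C) as lower bounds, since it was dim in Mixture. With limma 0 of the 8 passed, where 0.943% of genes passed higher and 8.9% lower. Mixture holds 7 of the 8 above background, so detection alone does not set the lines apart from it. The part of these markers in the Sox values was not tested.

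Genes known to be bound or driven by these factors were described as lists, chosen with earlier results of these data known. The genes called below pass with all 3 lines, and leaving out any 1 line left 0 genes called over the whole array. Of 15 cartilage genes bound by SoxE and SoxD factors, 0 passed higher and 2 lower, where 0.943% and 8.9% of all genes did, and their median ratio was -2.78 against 0.44 over all genes. With dim values raised it was -2.76 (NS21), -2.24 (NS195R) and -2.90 (NSEB5-2C). Acan, the cartilage proteoglycan aggrecan, was measured in NS195R alone among the lines and was at least 17.5-fold below Mixture over the 3 lines (adjusted p = 0.0355 with limma). Cnmd, the cartilage protein chondromodulin, was dim in all lines and at least 7.24-fold below Mixture (adjusted p = 0.013 with limma). Limma took dim signals as read, 20.9-fold (Acan) and 24.1-fold (Cnmd) below Mixture. These 2 p-values therefore rest in part on the spread of background signals. Chad, dim in all lines, was at least 12.5-fold below Mixture, and Col9a1, measured in NS195R alone among the lines, at least 6.13-fold, and neither passed. Col9a3, chosen after its values were seen, had 3.80 (NS195R), -3.23 (NS21) and a bound of -3.61 (NSEB5-2C). Hapln1, chosen likewise, was high in another line, with 3.83 (NS21) and bounds of -2.24 (NS195R) and -2.24 (NSEB5-2C). NS195R was at least 2-fold above both other lines for 3 cartilage genes and below for 2, where 10.3% and 5.88% of all genes were. The same counts were 3 and 1 for NS21 (7.3% and 4.06% of all genes), against 1 and 2 for NSEB5-2C (5.61% and 6.3%).

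Of 12 measured glial genes downstream of SoxE factors, 0 passed in either direction, at an adjusted or an unadjusted p under 0.05, where 0.943% of all genes passed higher and 8.9% lower by the adjusted p. NS195R was at least 2-fold above both other lines for 8 of them and below for 2, where 10.3% and 5.88% of all genes were. Their median ratio with dim values raised was 0.50 (NS195R), -1.69 (NS21) and -2.51 (NSEB5-2C), where all genes had 0.31 (NS195R), 0.29 (NS21) and 0.10 (NSEB5-2C). S100b, an astrocyte calcium-binding protein, had 3.94 (NS195R), -3.23 (NS21) and -3.87 (NSEB5-2C), and Nfia, a factor of early gliogenesis, had 1.65 (NS195R), -4.51 (NS21) and -4.13 (NSEB5-2C). Both were chosen after their values were seen. Erbb3, a receptor of Schwann cells, and Mbp, a myelin protein chosen after its values were seen, were dim in NS195R, with bounds of -6.90 for Erbb3 and -6.65 for Mbp. Over the 3 lines, Pdgfra (measured in 2 lines) was at least 19.1-fold below Mixture and Mmd2 (measured in 1) at least 7.02-fold. Cspg4 (measured in 2) was at least 17.9-fold below, and none of the 3 passed. Apcdd1 and Zcchc24, chosen after their values were seen, went the other way. They lay above Mixture in all 3 lines, by 2.51-fold (Apcdd1) and 3.03-fold (Zcchc24) over the lines, and did not pass.

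Of 10 genes on the young neuron list, 1 passed higher (Tead2) and 0 lower, where 0.943% and 8.9% of all genes did. The median ratio of the list was -0.02 against 0.44 over all genes. Tead2 was listed as a target of SoxC factors in neural progenitors, not as a neuron marker. It rose by 3.91 on the log2 scale (SE 0.43, adjusted p = 0.0267 with limma), with 4.22 (NS21), 3.63 (NS195R) and 3.89 (NSEB5-2C). Gap43, a growth cone protein, had a ratio of 2.75, and did not pass. Elavl3 and Dcx, markers of young neurons measured in NS195R alone among the lines, were at least 12.1-fold (Elavl3) and 5.65-fold (Dcx) below Mixture over the 3 lines and did not pass. In NS195R the ratio of Dcx was 0.21. Dbn1 and Stmn1, chosen after their values were seen, went the other way. They lay above Mixture in all 3 lines, by 5.71-fold (Dbn1) and 1.78-fold (Stmn1) over the lines, and did not pass. Map2, chosen likewise, was 20.5-fold above Mixture in NS195R and below it in the other lines. NS195R was at least 2-fold above both other lines for 4 of the 10 genes and below for 2. Of all genes, 10.3% were as far above and 5.88% as far below.

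**Figure D4:**
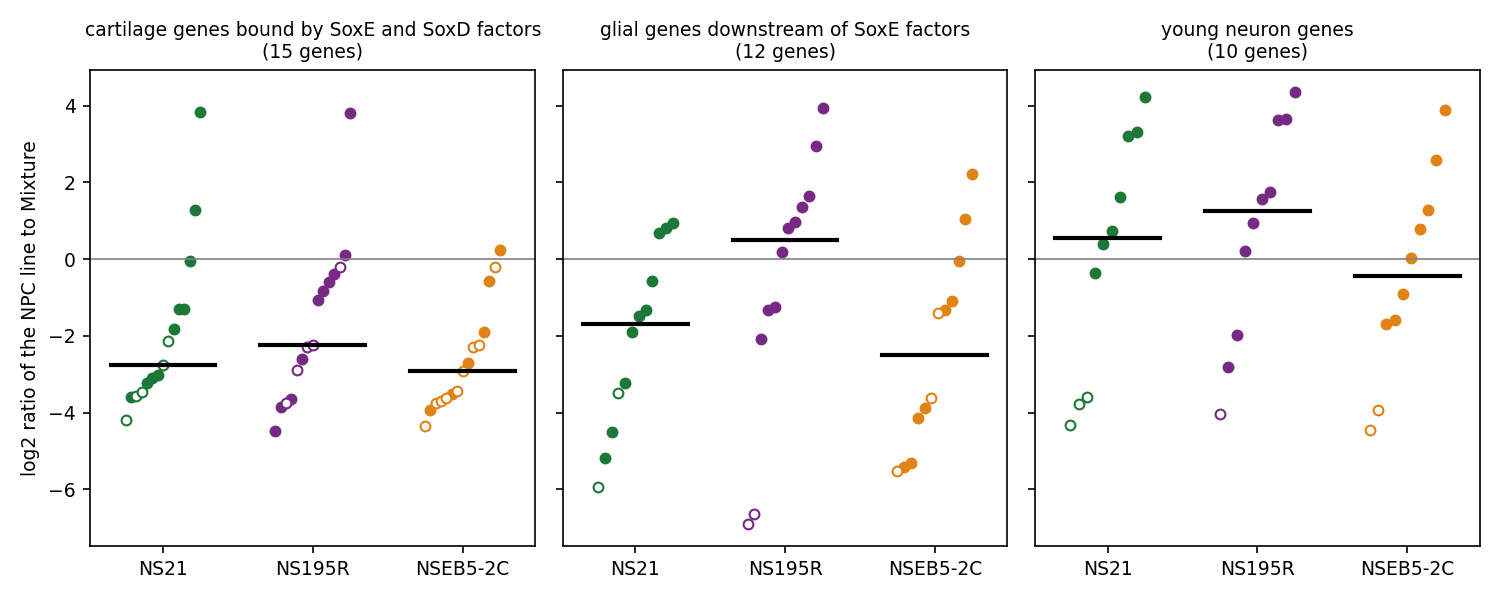
Log2 ratio to Mixture of each gene of 3 lists in NS21, NS195R and NSEB5-2C, with dim signals set to the same lower limit; open symbols are dim in the line and bars are medians. The glial genes have a median of 0.50 in NS195R, above those of the other lines, and the cartilage genes have medians below 0 in all 3 lines.

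Genes with the most similar ratios in the 3 lines were named by the root mean square difference of the log2 ratios, over genes well above background on the same arrays. They were Ahdc1 and BC065397 for Sox11 (0.19 each, of 11044 genes), Golm1 and Mpzl1 for Sox9 (0.20 each), Crbn and Ppox for Sox12 (0.04 and 0.05), and Tbx2 and Cd40 for Sox13 (0.27 and 0.37). Sox6 was nearest Sncaip and Homer2 (0.30 and 0.48, of 374 genes), and Sox8 nearest Gria4 and Brinp2 (0.03 and 0.13, of 324 genes). Sox4, over 2 lines, was nearest Rbfa and Nf2 (0.01 each). Fam186a and Olfr975 were nearest Sox5 (0.00 each). For Sox5 and Sox8, Mixture, NS21 and NSEB5-2C were dim, so 2 of the 3 compared values are limits shared with the genes named. Their match therefore rests on the NS195R value alone, itself a bound.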

How the data were processed

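Total RNA of 4 samples (the NPC lines NS21, NS195R and NSEB5-2C, and Mixture) was labelled with Cy3 and hybridised to 1-colour Agilent arrays on 1 slide, scanned on 1 day. Per the file headers, the authors read the spot intensity with Agilent Feature Extraction 9.5.3.1. Processed intensity in the deposited value table was identical at each of 45018 features, and columns of other samples in it numbered 0. Here log2 processed signals minus each array's percentile 75 were used, flagged spots were left out, repeated probes averaged and the probe with the highest mean kept for each gene (a complete one where there was one). Genes or probes measured well above background on 1 array or more were compared with limma 3.58.1 in R 4.3.3 (two-sided, Benjamini-Hochberg, threshold 0.05), with 2 residual degrees of freedom and a prior of 1.33; Mixture, with 1 array, was taken to vary as the lines do, and p-values measure the spread between these samples. The Sox4 fit, over 2 lines, had 1 residual degree of freedom. Each fit of a line against the other 2 used the 3 NPC arrays. It had 1 residual degree of freedom and took the lone line to vary as the others do. NPC replicate 1 is NS21, 2 is NS195R and 3 is NSEB5-2C. A bound, at least N-fold, takes for a dim signal the higher of its own and the lowest signal well above background on the array. Limma took dim signals as read and not as bounds. Where lines are dim, its p-values therefore rest in part on the spread of background signals. For the probe positions, a genome build is not given in the sources. The fits were tested on simulated data. All 8 members with every probe, the 2 genes most alike and, from each list, up to 4 genes with the largest ratio and those passing limma were named. The members and lists were chosen with earlier results of these data known. Alternatives covered background correction, scaling, the dim filter, flagged spots, the probe of a gene, the variance prior, the folds and each line left out.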

Additional observations from a re-analysis of the deposited data

Results flagged for a closer look

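Sox6 differed in direction between the NPC lines: NS195R lay above Mixture, and NS21 and NSEB5-2C below it. The highest line (NS195R) exceeded the lowest (NSEB5-2C) by at least 6.92 on the log2 scale, a bound because NSEB5-2C was not well above background. This difference between a pair of single arrays was not tested. NS195R against both other lines had an adjusted p of 0.376 with limma.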

How the results depend on the processing

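No paired analysis was possible because the replicate numbers were given in accession order and Mixture is a single sample. The deposited value table equals the scanner values, so it gave no alternative. Members called by gene stayed at 0 under every alternative. Against 187 genes called higher and 1765 lower, normexp gave 966 higher, quantile normalization 588, median scaling 73, no filter on dim probes 525, an intensity trend 473, and only genes well above background on all arrays 0 higher and 0 lower; leaving out any 1 line gave 0 and 0. Against 280 probes higher and 2340 lower, the same alternatives gave 1323, 1065, 118, 752 and 597 higher, and 0 and 0 with only probes well above background on all arrays or without any 1 line. The 2 called Sox11 probes became 3 with quantile normalization and 3 with no filter on dim probes (A_52_P608516 passed, adjusted p = 0.0291 and 0.0239), 1 with median scaling (adjusted p = 0.0540 for A_52_P114703), and 0 with only probes well above background on all arrays or without any 1 line. With normexp the count was 2, but A_52_P178018 missed (adjusted p = 0.0504) and A_52_P608516 passed (0.0362). The study's rule selected 6916 genes and 4438 with median scaling, with 3 members and 2 to 4 over the alternatives. Members apart in NS21 were 1, and 0 with normexp or at 4-fold. In NSEB5-2C they were 2, and 0 with normexp, 1 with the mean of probes and 1 at 4-fold. In NS195R they were 3, and 2 at 4-fold. Over all genes, those higher in NS21 went from 1447 to 621 (normexp) and 564 (4-fold). Genes lower in NSEB5-2C went from 1249 to 391 (normexp), 1222 (mean of probes) and 350 (4-fold). Genes higher in NS195R went from 2039 to 982 (normexp) and 951 (4-fold). The ratio of Sox12 was -0.30 with median scaling and 0.92 with quantile normalization, and that of Sox5 was -0.15 without NS195R (without other single lines up to 1.18). The median ratio of genes well above background on all arrays was 0.71, and 0.53 with normexp, 0.74 with quantile normalization and 0.22 with median scaling. The cause of these shifts was not tested. The number of arrays limits every comparison, and dim signals give bounds only.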

Other observations

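Among 9 measured other Sox genes, 0 passed higher and 1 passed lower, where 0.943% and 8.9% of all genes did. Sox17, a SoxF factor of endoderm and endothelium, was dim in all 3 NPC lines and at least 26.7-fold below Mixture (adjusted p = 0.00909 with limma). Limma took its dim signals as read, 89.8-fold below Mixture, so this p-value rests in part on the spread of background signals. The SoxF genes Sox18 and Sox7 were at least 56.9-fold (Sox18, measured in NS195R alone among the lines) and 19.0-fold (Sox7, dim in NS21) below Mixture over the 3 lines, with an adjusted p of 0.143 (Sox18) and 0.147 (Sox7) by limma. Sox2, the SoxB1 factor of neural stem cells, was dim in NS21, with a bound of -1.48, and had ratios of 4.44 (NSEB5-2C) and 6.26 (NS195R). Sox21, a SoxB2 factor chosen after its values were seen, was at least 83.8-fold above Mixture in NS195R and at least 3.38-fold in NSEB5-2C.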
